A study of Mus musculus with 12 samples.

Results

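The 8 genes described here encode proteins of the lipid droplet. They are the perilipin genes Plin2, Plin3, Plin4 and Plin5, the acyltransferase genes Dgat1 and Dgat2, the lipase gene Pnpla2 and Hilpda. They are the rows of the deposited tables that carry these gene names, 8 of 57180 genes, with 1 row for each name. The 8 names were chosen by values of these libraries already known, among them the count difference between OVX8_SCI7 and SCI7, in which Plin4 stood high. Their levels and differences are therefore given as a description in all 3 comparisons. The calls that the fit over all genes made among them are counted beside the share of all genes it called, and are not used as a test of the members.

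Bulk RNA of spinal cord was sequenced, with paired ends, from 12 female C57BL/6J mice in 3 groups of 4. All cords were collected 7 days after a clip compression injury at the T9 to T10 level and reached roughly 0.5 cm past the lesion in both directions. OVX8_SCI7 mice had both the injury and an ovariectomy 8 weeks before it, OVX2_SCI7 mice had the ovariectomy 2 weeks before the injury, and SCI7 mice had the injury alone. Every group carries the injury, and no sham-operated or uninjured cord was analysed here, so surgery, loss of ovarian hormones and time since surgery cannot be told apart. The label gives an age of 8 weeks for all mice without the time point it refers to, so age at injury may also differ between the groups.

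Lipid droplets store triglyceride and cholesterol ester behind a single layer of phospholipid that is coated with proteins, of which the perilipins are the best known. Dgat1 and Dgat2 encode the enzymes that complete triglyceride synthesis, Pnpla2 encodes adipose triglyceride lipase, which opens triglyceride breakdown, and Hilpda encodes a small droplet protein that inhibits this lipase and is induced by low oxygen and by fatty acids. In injured cord and brain, macrophages and microglia that clear myelin debris fill with droplets and take on a foamy look. Plin2 is the usual droplet coat protein of such cells, Plin3 is a cytosolic protein that moves to small new droplets in many tissues, Plin4 is known from fat and muscle, and Plin5 ties droplets to mitochondria in tissues that burn fat.

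Library totals ran from 18222809 to 31781728 expected counts, and 3 counts, the floor used here, equal 0.0944 to 0.165 CPM, the count scaled to a common library size. Such floors cover counting error only. All 8 genes of a list for thoracic cord, Hox genes with Olig2 and Nkx2-2, were above 0 in every group, but so were all markers of skeletal muscle, red blood cells, Schwann cells and fibroblasts, so detection alone does not separate the labelled tissue from others. In bulk tissue, fewer cells of a type and less RNA per cell cannot be told apart. Several measures moved with the groups. Transcripts of the mitochondrial genome took 2.2 to 3.36% of counts in OVX8_SCI7, 2.36 to 8.33% in OVX2_SCI7 and 5.35 to 9.35% in SCI7. The Spearman correlation between a coding gene's deviation from its mean over the 12 libraries and its GC content was 0.15 to 0.83 in OVX8_SCI7 libraries, -0.41 to 0.51 in OVX2_SCI7 and -0.80 to -0.49 in SCI7. It was taken across 15087 genes, which are not independent replicates. Replicates 1 and 2 of OVX2_SCI7 and replicate 3 of SCI7 stood apart, with the lowest sums of phagocyte markers and the highest of neuronal markers, and results that rest on them are given with their values.

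By TPM, a transcript level that is scaled by length and library, Plin2 was by far the most abundant of the 8 genes, with a mean of 431 TPM over the 12 libraries. Pnpla2 followed at 39.5 TPM and Plin3 at 37.4 TPM, and these neighbours overlapped, since Pnpla2 lay above Plin3 in 7 of 12 libraries. Dgat1 at 22.3 TPM, Hilpda at 17.1 TPM and Dgat2 at 15.1 TPM overlapped each other in range, with Dgat1 above Hilpda in 8 of 12 libraries and Hilpda above Dgat2 in 5 of 12. Plin4 came next at 8.61 TPM and Plin5 last at 0.613 TPM, below Plin4 in all 12 libraries. Plin2 made up 87.2 to 93.4% of the summed perilipin TPM in OVX8_SCI7, 63.3 to 94.4% in OVX2_SCI7 and 66.3 to 92.8% in SCI7. Plin4 supplied 1.42 to 3.94% of that sum in OVX8_SCI7, 0.713 to 8.57% in OVX2_SCI7 and 0.525 to 3.99% in SCI7.

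**Figure D1:**
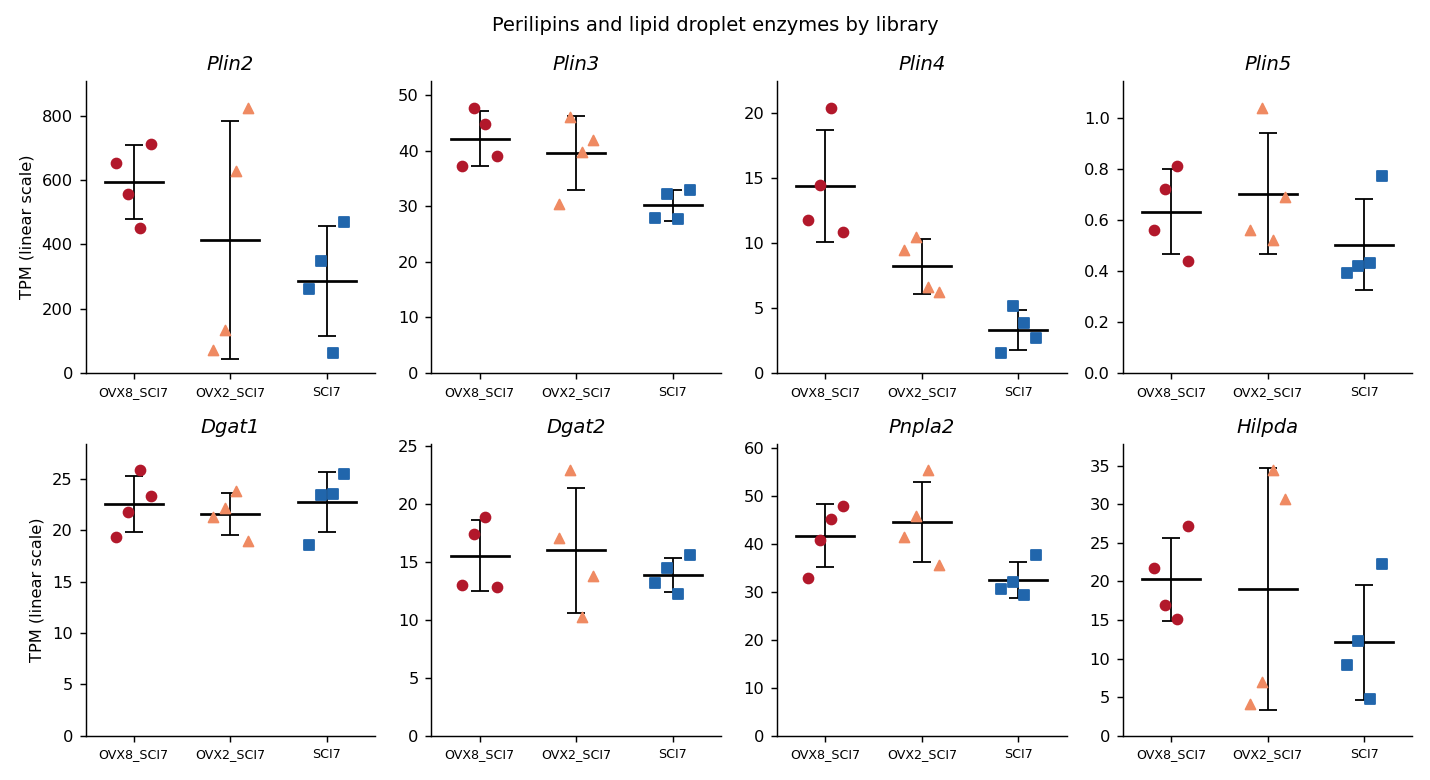
TPM of each of the 8 genes in the 12 libraries (points, linear axes from 0), with the mean (line) and SD (bars, n = 4) of OVX8_SCI7, OVX2_SCI7 and SCI7. Plin4 fell into 3 separate ranges, while Plin2 and Hilpda spread widely within OVX2_SCI7, where Plin2 ran from 69.8 to 825 TPM.

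The edgeR fit over all 17820 tested genes called 3 of the 8 members different in OVX8_SCI7 against SCI7, all of them higher, namely Plin3, Plin4 and Pnpla2. The same fit called 27.5% of all tested genes, 11.9% higher and 15.6% lower. Because the members were chosen with this contrast in view, nothing is read from the count. With a fit that also removes each library's dependence on GC content and length (the GC and length offset), all 3 calls were lost, as were those of all other tested genes, and they were lost without replicate 2 of OVX8_SCI7. With 1 library left out, Plin3 was called in 6 of 12 fits, and Plin4 and Pnpla2 in 11 each. In 4 of the 8 members, the CPM of all OVX8_SCI7 libraries lay above that of all SCI7 libraries, as was the case for 19.6% of tested genes. In OVX2_SCI7 against SCI7 the fit called 0 members and 0% of genes, although 3 members and 5787 genes stood below 0.05 before adjustment (unadjusted p) and DESeq2 called 3 members and 20.7% of all genes. Only Plin4 lay wholly above SCI7 there, as 6.13% of tested genes did. In OVX8_SCI7 against OVX2_SCI7 it called 0 members and 0% of genes, although 1 member and 393 genes stood below 0.05 before adjustment, and DESeq2 called 0 members and 0.0337% of all genes. Again only Plin4 lay wholly above in CPM, here above OVX2_SCI7, as 0.241% of tested genes did. These comparisons share libraries. The median log2 difference of the 8 members was 0.63 in OVX8_SCI7 against SCI7 (0.01 over all tested genes). It was 0.64 in OVX2_SCI7 against SCI7 (0.04) and 0.05 in OVX8_SCI7 against OVX2_SCI7 (-0.03). With the GC and length offset these medians were 0.37 (-0.06 over all tested genes), 0.37 (0.02) and -0.05 (-0.08).

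Plin4 was the member with the clearest steps between groups. Its TPM was 11.8, 14.5, 20.4 and 10.8 in OVX8_SCI7 replicates 1 to 4, 9.44, 10.4, 6.60 and 6.23 in OVX2_SCI7 replicates 1 to 4, and 1.57, 5.11, 3.80 and 2.66 in SCI7 replicates 1 to 4. No pair of groups overlapped, although the lowest OVX8_SCI7 library was close to the highest OVX2_SCI7 library. The counts behind these values ran from 678 to 1707 in OVX8_SCI7, 515 to 738 in OVX2_SCI7 and 116 to 320 in SCI7. On the log2 scale of TMM-scaled counts Plin4 differed by 2.24 (SE 0.30) between OVX8_SCI7 and SCI7, a 4.72-fold higher level. The difference was 1.47 (SE 0.29) between OVX2_SCI7 and SCI7 and 0.77 (SE 0.28) between OVX8_SCI7 and OVX2_SCI7. Leaving out any 1 library kept the difference from SCI7 between 2.03 and 2.53 for OVX8_SCI7. The fit with the GC and length offset gave 1.70 (SE 0.28) for OVX8_SCI7 against SCI7, 1.15 (SE 0.28) for OVX2_SCI7 against SCI7 and 0.55 (SE 0.28) for OVX8_SCI7 against OVX2_SCI7. Plin4 overlaps the gene Hdgfl2 on the opposite strand, and whether counting used strand is not given in the sources used here.

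Plin4 is known from adipose and muscle tissue, so the markers of both are given beside it. The 10 adipocyte markers summed to 31.4 to 63.3 TPM in OVX8_SCI7, 4.19 to 77.7 TPM in OVX2_SCI7 and 9.04 to 103 TPM in SCI7, of which Fabp4, a fatty acid binding protein also made by macrophages, supplied 30.4 to 61.8 TPM in OVX8_SCI7, 2.8 to 76.8 TPM in OVX2_SCI7 and 4.29 to 47.8 TPM in SCI7. The defining genes Adipoq, Plin1, Cidec and Lep were under 1 TPM in every OVX8_SCI7 and OVX2_SCI7 library, and each had its highest value in SCI7. Adipoq, which encodes adiponectin, stood at 0.08 to 0.86 TPM in OVX8_SCI7, 0 to 0.37 TPM in OVX2_SCI7 and 0 to 4.08 TPM in SCI7, Lep was at 0 to 0.03 TPM in OVX8_SCI7, 0 in all OVX2_SCI7 libraries and at most 0.06 TPM in SCI7, and Retn was at 0 in all OVX8_SCI7 libraries. Plin1, the perilipin of fat cells, stood at 0.06 to 0.26 TPM in OVX8_SCI7, 0 to 0.11 TPM in OVX2_SCI7 and 0.03 to 1.93 TPM in SCI7. The 10 skeletal muscle markers, all above 0 in every group, summed to 113, 11.6, 69.9 and 103 TPM in OVX8_SCI7 replicates 1 to 4, against 4.51 to 33.6 TPM in OVX2_SCI7 and 10.6 to 39.5 TPM in SCI7. Plin4 was at 14.5 TPM in OVX8_SCI7 replicate 2, whose muscle sum was within the range of SCI7. It was at 11.8, 20.4 and 10.8 TPM in OVX8_SCI7 replicates 1, 3 and 4, whose muscle sums exceeded those of all SCI7 libraries. Of the 10 muscle markers 2, Actn3 and Myh4, rose in OVX8_SCI7 against SCI7 (edgeR, adjusted p under 0.05), where 11.9% of all genes were called higher. With the GC and length offset 0 were called. All 10 had positive log2 differences in this comparison, with a median of 1.90 (0.01 over all tested genes). With the offset all 10 stayed positive, with a median of 1.35 (-0.06 over all tested genes). The part of fat or muscle RNA in the level of Plin4 was not tested.

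Plin2 varied widely within groups. It stood at 652, 555, 451 and 713 TPM in OVX8_SCI7 replicates 1 to 4, at 69.8, 132, 629 and 825 TPM in OVX2_SCI7 replicates 1 to 4, and at 262, 348, 63.2 and 470.5 TPM in SCI7 replicates 1 to 4. OVX8_SCI7 was evenly high, OVX2_SCI7 held both the highest and some of the lowest libraries, and replicate 3 was low in SCI7. The groups overlapped in TPM, while in CPM all OVX8_SCI7 libraries (368 to 648 CPM) lay above all SCI7 libraries (44.5 to 355 CPM). The log2 difference was 1.24 (SE 0.77) for OVX8_SCI7 against SCI7, 0.83 (SE 0.76) for OVX2_SCI7 against SCI7 and 0.41 (SE 0.76) for OVX8_SCI7 against OVX2_SCI7. Without replicate 3 of SCI7 the model gave the smallest value for the first comparison, 0.89, and without replicate 4 of SCI7 it gave the highest, 1.57. The difference of OVX2_SCI7 from SCI7 was 0.21 without replicate 4 of OVX2_SCI7 and 1.19 without its replicate 1, and that of OVX8_SCI7 from OVX2_SCI7 was 1.03 and 0.05 without these same libraries.

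Hilpda, the inhibitor of the Pnpla2 lipase, followed Plin2 library by library. It stood at 21.7, 17, 15.2 and 27.2 TPM in OVX8_SCI7 replicates 1 to 4, 4.14, 6.93, 34.4 and 30.7 TPM in OVX2_SCI7 replicates 1 to 4, and 9.14, 12.3, 4.71 and 22.3 TPM in SCI7 replicates 1 to 4. The low libraries were those low in Plin2, and all groups overlapped. Its log2 difference was 0.68 (SE 0.64) for OVX8_SCI7 against SCI7, 0.74 (SE 0.65) for OVX2_SCI7 against SCI7 and -0.06 (SE 0.64) for OVX8_SCI7 against OVX2_SCI7. Pearson's r between log2 CPM of Plin2 and Hilpda was 0.96 over the 12 libraries (Spearman's rho 0.94), 0.93 without the 2 libraries farthest from the median of Plin2, and 0.97 after group means were subtracted. The ratio of Plin2 to Hilpda TPM was 26.2 to 32.7 in OVX8_SCI7, 16.9 to 26.9 in OVX2_SCI7 and 13.4 to 28.7 in SCI7. These points share their libraries, and with them depth, GC trend and tissue content, so such correlations are descriptions and carry no p.

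Both genes moved with markers of phagocytes, though not with those alone. The 10 markers of phagocytic macrophages and microglia, of which all were above 0 in every group, summed to 15399, 13967, 11490.3 and 18024 TPM in OVX8_SCI7 replicates 1 to 4, to 2237, 3703, 12050 and 19764 TPM in OVX2_SCI7 replicates 1 to 4, and to 10858, 13812, 1957 and 18834 TPM in SCI7 replicates 1 to 4. The lowest sums belong to the same 3 libraries as the lowest Plin2. Of these 10 markers 1, Trem2, rose in OVX8_SCI7 against SCI7 (edgeR, adjusted p under 0.05), where 11.9% of all genes were called higher. With the GC and length offset 0 were called. All 10 had positive log2 differences in this comparison, with a median of 1.21 (0.01 over all tested genes). With the offset all 10 stayed positive, with a median of 1.02 (-0.06 over all tested genes). The log2 TPM of Plin2 correlated with the log2 sum at r = 0.96 (rho 0.89; 0.88 without the 2 farthest libraries, n = 12) and that of Hilpda at r = 0.90 (rho 0.83; 0.76 without the 2 farthest). The adipocyte sum correlated at r = 0.92 with Plin2 (0.87 without the 2 farthest libraries) and 0.95 with Hilpda (0.94). This sum is not specific to fat cells, since Fabp4, also made by macrophages, is part of it. Fabp4 supplied 30.4 to 61.8 TPM of sums of 31.4 to 63.3 TPM in OVX8_SCI7. It was at 2.8 to 76.8 of 4.19 to 77.7 TPM in OVX2_SCI7 and 4.29 to 47.8 of 9.04 to 103 TPM in SCI7. The sum of fibroblasts and meninges correlated at r = 0.90 with both Plin2 and Hilpda (0.70 and 0.75 without the 2 farthest). Neuronal markers ran the other way, at r = -0.86 for Plin2 and -0.95 for Hilpda. The part of these cell types in the differences between groups was not tested.

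Whether Plin2 differed relative to phagocyte RNA depended on the marker used as the measure, a comparison added after the values were seen. Plin2 stood at 39.2 to 42.3 TPM per 1000 TPM of summed phagocyte markers in OVX8_SCI7, 31.2 to 52.2 in OVX2_SCI7 and 24.1 to 32.3 in SCI7, with no overlap between OVX8_SCI7 and SCI7. Spp1, osteopontin, made up 34.6 to 72.4% of that sum, with a mean of 53.2%. Relative to Lgals3, galectin-3, the order was turned, with ratios of 0.627 to 0.739 in OVX8_SCI7, 0.844 to 1.07 in OVX2_SCI7 and 0.811 to 1.19 in SCI7. Relative to Gpnmb, a glycoprotein of foamy macrophages, the groups overlapped, at 0.263 to 0.371 in OVX8_SCI7, 0.280 to 0.390 in OVX2_SCI7 and 0.252 to 0.616 in SCI7. They also overlapped relative to Spp1, at 0.0672 to 0.0794 in OVX8_SCI7, 0.0708 to 0.130 in OVX2_SCI7 and 0.0345 to 0.0752 in SCI7. The same held relative to Cd68, a lysosomal protein of macrophages. Those ratios were 0.531 to 0.766 in OVX8_SCI7, 0.402 to 0.759 in OVX2_SCI7 and 0.731 to 0.851 in SCI7. In SCI7 the highest ratios to Spp1 and Gpnmb, 0.0752 and 0.616, were those of replicate 3. The other SCI7 libraries stood at 0.0345 to 0.0374 for Spp1, below every OVX8_SCI7 and OVX2_SCI7 library. For Gpnmb they stood at 0.252 to 0.333.

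**Figure D2:**
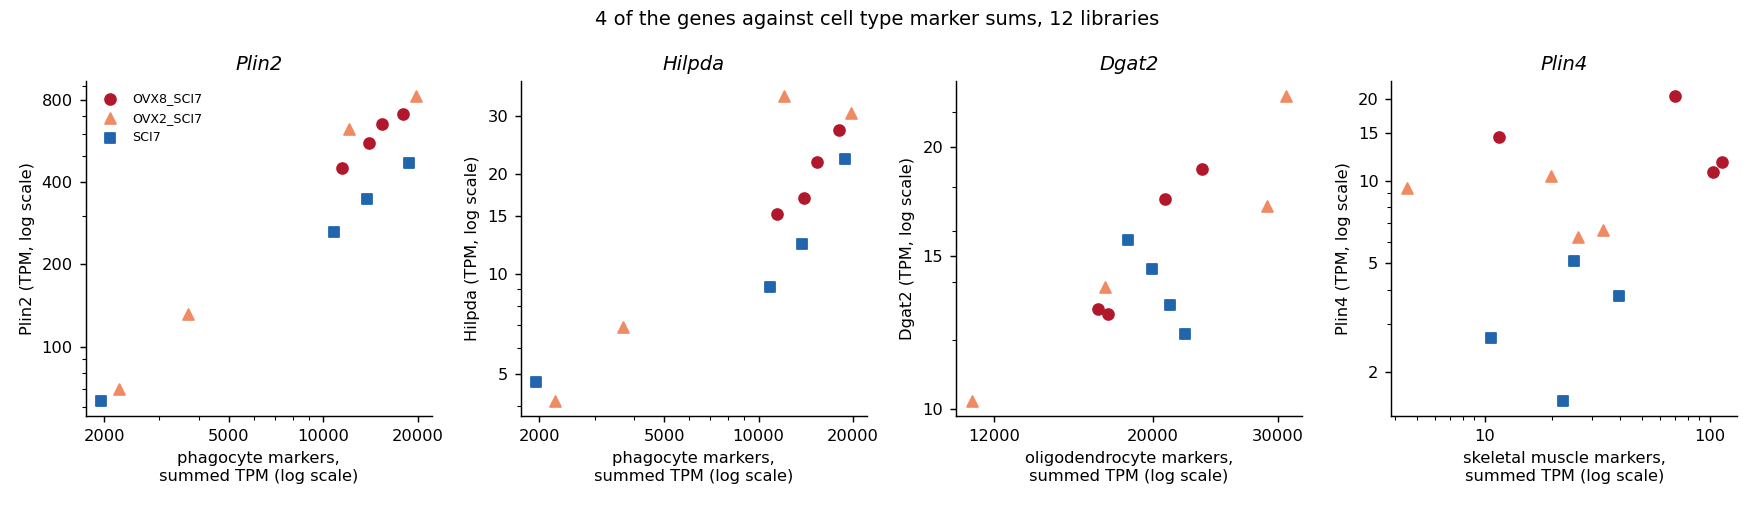
TPM of Plin2, Hilpda, Dgat2 and Plin4 against summed TPM of marker genes in the 12 libraries (log axes, 1 point per library, coloured by OVX8_SCI7, OVX2_SCI7 and SCI7). Plin2 and Hilpda climbed with the phagocyte sum, from 63.2 TPM of Plin2 at a sum of 1957 TPM. Plin4 was at 10.8 to 20.4 TPM in OVX8_SCI7, where the muscle sum was 11.6 to 113 TPM.

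The promoters of Plin2 and Hilpda, which moved together, and of Plin4, which did not, are shown. They were taken from RefSeq for GRCm38.p6, an older build than that of the counts. Whether these sequences bear on the levels was not tested. Each line gives the 250 bases before the transcription start and the first 2 bases of the transcript. For Hilpda the downstream of its 2 listed starts is shown. Capitals mark AGGTCA, the half-site of nuclear receptors such as PPARs, on either strand. They also mark ACGTG, a form of the core of the hypoxia response element, on either strand. Other forms of that core were not searched for.
Plin2, chr4:86670058-86670309, minus strand: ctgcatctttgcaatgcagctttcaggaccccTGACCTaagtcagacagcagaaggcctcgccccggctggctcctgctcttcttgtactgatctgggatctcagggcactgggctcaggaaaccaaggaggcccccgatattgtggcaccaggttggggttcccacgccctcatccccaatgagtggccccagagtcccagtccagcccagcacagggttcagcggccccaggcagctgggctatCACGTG
Hilpda, chr6:29272376-29272627, plus strand: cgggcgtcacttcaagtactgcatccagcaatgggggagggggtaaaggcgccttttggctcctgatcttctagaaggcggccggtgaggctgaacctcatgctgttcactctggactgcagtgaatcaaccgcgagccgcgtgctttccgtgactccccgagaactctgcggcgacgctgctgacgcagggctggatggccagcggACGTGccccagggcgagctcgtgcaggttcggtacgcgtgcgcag
Plin4, chr17:56109781-56110032, minus strand: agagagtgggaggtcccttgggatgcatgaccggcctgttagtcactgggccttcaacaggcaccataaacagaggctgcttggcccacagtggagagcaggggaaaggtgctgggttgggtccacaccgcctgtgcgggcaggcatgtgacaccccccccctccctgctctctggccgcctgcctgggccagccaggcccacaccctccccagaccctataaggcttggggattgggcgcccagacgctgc

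ACGTG was present in the window of Plin2 and in 1 of the 2 windows of Hilpda, the one shown, with its first base at position -43 from the start. The window of the upstream start of Hilpda, chr6:29272238-29272489 for the same stretch, holds neither string. In Plin2 it lies in the palindrome CACGTG across the start, which counts on both strands and is also the letters of an E-box. AGGTCA was present on the reverse strand in Plin2, at position -218, and in both listed windows of Plin5. In the windows of Plin3, Plin4 and Pnpla2 neither string was found, which says only that these letters are not in these stretches. Of 32851 mouse promoter windows of 300 bases, from 250 before to 50 after a start, 19.6% hold ACGTG and 16.3% hold AGGTCA, so neither is rare. A pair of AGGTCA in the same direction with 1 base between, the classical PPAR element, was in no member's window and in 0.0396% of all windows. The table matched 6 of the 8 members; Dgat1 and Dgat2 were not matched.

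Plin3 stood at 37.2, 47.8, 44.9 and 39.1 TPM in OVX8_SCI7 replicates 1 to 4, 30.4, 46.1, 39.9 and 42.0 TPM in OVX2_SCI7 replicates 1 to 4, and 27.9, 32.2, 27.8 and 33.0 TPM in SCI7 replicates 1 to 4. All OVX8_SCI7 libraries lay above all SCI7 libraries, and OVX2_SCI7 overlapped both. The log2 difference was 0.59 (SE 0.18) for OVX8_SCI7 against SCI7, 0.53 (SE 0.18) for OVX2_SCI7 against SCI7 and 0.06 (SE 0.18) for OVX8_SCI7 against OVX2_SCI7. With the GC and length offset these were 0.41 (SE 0.14), 0.44 (SE 0.14) and -0.03 (SE 0.14). Plin3 thus varied within a narrow band, with at most a 1.52-fold spread in TPM inside a group, where Plin2 spread up to 11.8-fold.

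Plin5 was barely detected, with 8 to 24 counts in OVX8_SCI7 libraries, 11 to 21 in OVX2_SCI7 and 8 to 15 in SCI7. Its TPM was 0.44 to 0.81 (median 0.64) in OVX8_SCI7, 0.52 to 1.04 (median 0.625) in OVX2_SCI7 and 0.39 to 0.77 (median 0.425) in SCI7. The groups overlapped, and the log2 difference was 0.33 (SE 0.31) for OVX8_SCI7 against SCI7. With the GC and length offset the sign turned, to -0.42 (SE 0.27).

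Pnpla2, the lipase gene, differed more in counts than in transcript level. Its counts scaled to 49.2, 56.3, 57.9 and 51.0 CPM in OVX8_SCI7 replicates 1 to 4, 31.8, 50.2, 76.9 and 49.2 CPM in OVX2_SCI7 replicates 1 to 4, and 27.0, 25.2, 23.4 and 33.7 CPM in SCI7 replicates 1 to 4, and OVX8_SCI7 lay wholly above SCI7. The log2 difference of counts was 0.97 (SE 0.22), a 1.96-fold higher level in OVX8_SCI7. In TPM the groups overlapped, at 32.9 to 48.0 TPM in OVX8_SCI7, 35.5 to 55.4 TPM in OVX2_SCI7 and 29.3 to 37.7 TPM in SCI7, and the mean of OVX8_SCI7 was 1.29 times that of SCI7.

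Both scales are tied by the transcript length that the deposited values imply, and this length differed for Pnpla2. Counts divided by FPKM and by the library total gave 1858 to 2244 bases in OVX8_SCI7, 1290 to 2000 bases in OVX2_SCI7 and 1313 to 1599 bases in SCI7. The log2 ratio of the mean length in OVX8_SCI7 over SCI7 was 0.56, at percentile 99.2 of the 12980 genes that averaged 100 counts or more, whose median was -0.05. RSEM averages the effective length of a gene over its isoforms by their estimated share, and values per isoform were not analysed here. The other members with enough counts had log2 length ratios between -0.15 for Hilpda and 0.14 for Plin2. With the GC and length offset the log2 difference of Pnpla2 counts was 0.33 (SE 0.13) for OVX8_SCI7 against SCI7, 0.43 (SE 0.13) for OVX2_SCI7 against SCI7 and -0.10 (SE 0.13) for OVX8_SCI7 against OVX2_SCI7, against 0.97, 0.93 and 0.04 without it.

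The enzymes that complete triglyceride synthesis were close to level across the groups. Dgat1 stood at 19.3, 21.8, 25.8 and 23.3 TPM in OVX8_SCI7 replicates 1 to 4, 21.3, 22.2, 23.8 and 18.9 TPM in OVX2_SCI7 replicates 1 to 4, and 18.6, 23.4, 23.6 and 25.5 TPM in SCI7 replicates 1 to 4. Dgat2 stood at 13.01, 17.4, 18.9 and 12.8 TPM in OVX8_SCI7 replicates 1 to 4, 17.1, 22.9, 10.2 and 13.8 TPM in OVX2_SCI7 replicates 1 to 4, and 13.2, 14.5, 12.2 and 15.6 TPM in SCI7 replicates 1 to 4. For both genes every group overlapped every other. The log2 difference of counts for OVX8_SCI7 against SCI7 was 0.15 (SE 0.15) for Dgat1, with a 95% interval of -0.15 to 0.44, and 0.17 (SE 0.19) for Dgat2, with an interval of -0.20 to 0.53, both intervals taken as normal. With the GC and length offset both turned negative, to -0.49 (SE 0.10) for Dgat1 and -0.46 (SE 0.21) for Dgat2. The ratio of Dgat2 to Dgat1 TPM was 0.550 to 0.800 in OVX8_SCI7, 0.429 to 1.03 in OVX2_SCI7 and 0.517 to 0.711 in SCI7.

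**Figure D3:**
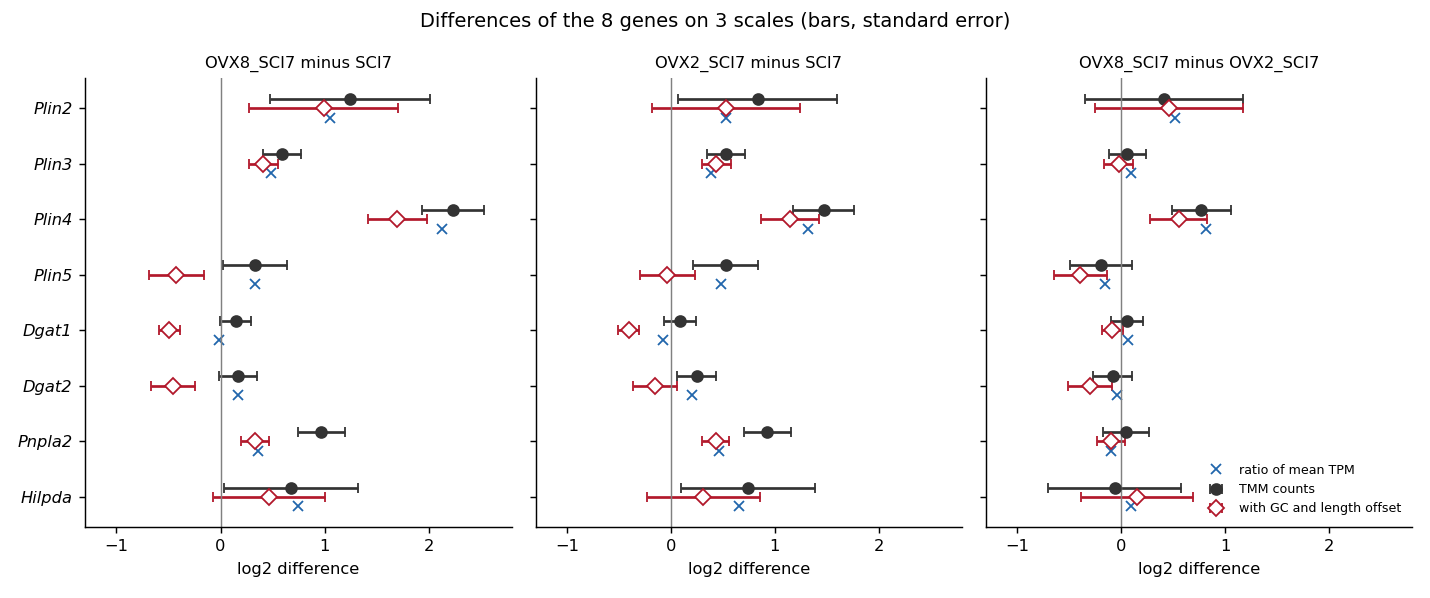
Log2 differences of the 8 genes in the 3 comparisons, from TMM-scaled counts (filled circles), from the same counts with an offset for GC content and length (open diamonds) and as the ratio of mean TPM (crosses). Bars are standard errors. Plin4 stayed the highest on all 3 scales in OVX8_SCI7 against SCI7, Pnpla2 moved from 0.97 to 0.33 with the offset, and Plin5, Dgat1 and Dgat2 crossed 0.

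The GC content of the members is given because of the trend across libraries. It was 58.6% for Plin5, 57.0% for Pnpla2, 56.5% for Dgat1, 56.3% for Dgat2, 55.9% for Plin4, 52.1% for Plin2 and 51.1% for both Plin3 and Hilpda, against a median of 50.2% over tested coding genes. Across those genes, log2 differences correlated with GC content at a Spearman rho of 0.82 for OVX8_SCI7 against SCI7, 0.79 for OVX2_SCI7 against SCI7 and 0.45 for OVX8_SCI7 against OVX2_SCI7. Over the 12 libraries, log2 CPM correlated with the library's own GC trend at r = 0.89 for Pnpla2 (rho 0.75), 0.88 for Plin3 (rho 0.77) and 0.84 for Plin4 (rho 0.87). For Hilpda r was 0.39 and for Plin2 it was 0.49. Without the 2 libraries farthest from the median trend, r was 0.83 for Pnpla2, 0.90 for Plin3 and 0.82 for Plin4. The part of this trend in the differences between groups was not tested beyond the offset.

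The members did not vary as 1 block. Plin2, Hilpda and Dgat1 correlated over the 12 libraries, with r of 0.87 between Hilpda and Dgat1 (rho 0.79, 0.76 without the 2 farthest libraries) and 0.84 between Plin2 and Dgat1 (rho 0.73, 0.64). Plin3 and Pnpla2 correlated at 0.91 (rho 0.82, 0.89) and were not separate from these, since Plin3 correlated with Plin2 at 0.76 (rho 0.79, 0.52) and with Dgat1 at 0.77 (rho 0.73, 0.63). Pnpla2 correlated with Dgat1 at 0.76 (rho 0.77, 0.69), and at 0.93 after group means were subtracted. Plin4 correlated with Pnpla2 at 0.72 (rho 0.69, 0.70) and with Hilpda at 0.16 (rho 0.18, 0.29). After group means were subtracted, the r of Plin4 was -0.39 with Hilpda, -0.37 with Plin2, -0.20 with Pnpla2, 0.08 with Plin5 and 0.21 with Dgat2. Dgat2 ran with Plin5, at 0.70 (rho 0.70, 0.61), and against Hilpda, at -0.32 (rho -0.28, -0.58). After the GC and length offset the r of Plin2 with Hilpda was 0.94. That of Dgat1 was -0.40 with Plin2, -0.84 with Plin3, -0.23 with Hilpda and -0.58 with Pnpla2. The sign of each of these correlations of Dgat1 thus depended on the offset.

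**Figure D4:**
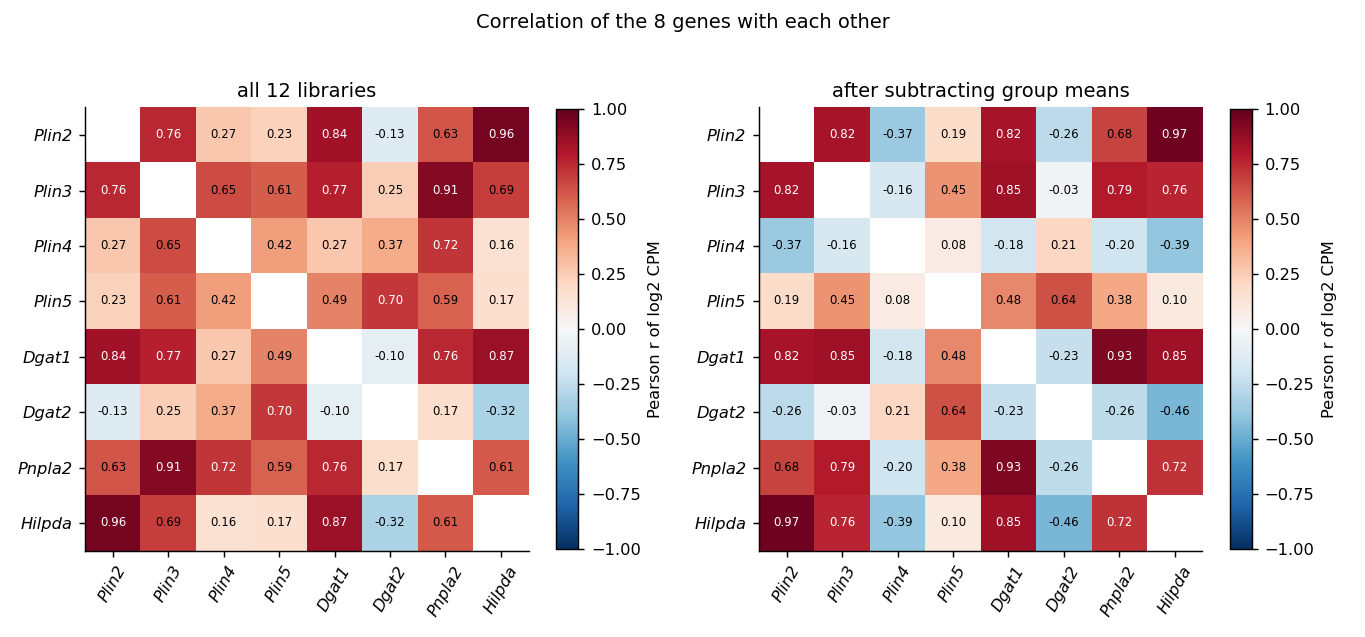
Pearson's r of log2 CPM between the 8 genes over all 12 libraries (left) and after group means were subtracted (right), on a colour scale from -1 to 1. The pair of Plin2 and Hilpda is at 0.96 and 0.97, whereas Plin4 reaches at most 0.21 (with Dgat2) once group means are removed.

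The genes most alike in pattern were looked for among 14400 other tested genes that averaged 1 CPM or more, by Pearson's r of log2 CPM. Over the 12 libraries Plin2 was most like Lgals3 (galectin-3, 0.99), Arhgdib (0.99) and Gusb (a lysosomal glucuronidase, 0.99), and with group means subtracted most like Lgals3, Alox5ap and Nlrp3, of which Nlrp3 encodes the sensor of an inflammasome. Hilpda was most like Irak4 (a kinase below interleukin-1 and Toll-like receptors, 0.99), Xbp1 (a factor of the unfolded protein response, 0.99) and Mcfd2 (0.99), and within groups most like Irak4, Dpp7 and Fabp4. Dgat1 was most like Socs3 (a cytokine-induced inhibitor, 0.96), Il4ra (an interleukin-4 receptor chain, 0.96) and Bok (0.96), and within groups most like Miip, Fbxw4 and Selp.

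Dgat2 was most like Kank1 (0.95), Gal3st1 (the sulfotransferase that makes myelin sulfatide, 0.95) and Pacs2 (0.95), and within groups most like Nkx2-2 (a factor of the oligodendrocyte lineage, 0.98), Kank1 (0.97) and Mag (myelin-associated glycoprotein, 0.97). Against summed markers, the log2 TPM of Dgat2 correlated at r = 0.82 with oligodendrocytes (rho 0.66, 0.54 without the 2 farthest libraries) and 0.83 with astrocytes (rho 0.68, 0.60). Plin4 was most like Arid3b (0.95), Slc45a4 (0.92) and Eme2 (0.91), and within groups most like Ppara (the fatty acid sensing receptor PPAR alpha, 0.90), Prox2 (0.88) and Eme2 (0.80). Ppara itself stood at 0.66 to 0.96 TPM in OVX8_SCI7, 0.67 to 0.88 TPM in OVX2_SCI7 and 0.46 to 1.56 TPM in SCI7. It averaged 1.44 CPM, near the cut of 1 CPM. Its r with Plin4 within groups ran from 0.82 to 0.95 with 1 library left out.

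Plin3 was most like Polr2e (an RNA polymerase subunit), Bbc3 and Mospd3, all at 0.99, and within groups most like Spns1, Mospd3 and Atf6b. Pnpla2 was most like Ciao3, Rabep2 and Preb, all at 0.98, and within groups most like Paf1 and Eef2. The genes most like Plin3 had a GC content of 58.5 to 65.2%, and those most like Pnpla2 over the 12 libraries 52.0 to 59.5%. Plin5 was most like Dnai2 (0.90), Gpr17 (0.87) and Pth1r (0.87), and within groups most like Smyd5, Elac2 and Atad3a, at 8 to 24 counts per library. When each library was left out in turn, every r among these nearest genes stayed at 0.72 or higher. Each was picked as among the highest of 14400 values, so its size is not a test of a link.

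Other genes were read from 10 lists that hold none of the 8 members. The lists cover lipid metabolism and its transcription factors, targets of hypoxia and targets of glucocorticoids. Of 150 genes, 140 were tested in OVX8_SCI7 against SCI7, and 27 rose and 17 fell (edgeR, adjusted p under 0.05), so 31.4% were called against 27.5% of all tested genes. Their median log2 difference was 0.22, against 0.01 over all genes, and -0.03 against -0.06 with the GC and length offset. In OVX2_SCI7 against SCI7, edgeR called 0 of the 140 genes, of which 47 stood below 0.05 before adjustment (unadjusted p), while DESeq2 called 36 of the 140 and 20.7% of all genes. In OVX8_SCI7 against OVX2_SCI7, edgeR called 0, of which 3 stood below 0.05 before adjustment, and DESeq2 called 0, against 0.0337% of all genes. No pathway gene was called in OVX8_SCI7 against SCI7 with the offset, and none without replicate 2 of OVX8_SCI7, so every call below depends on both.

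Among 13 tested genes of droplet coats and biogenesis, 2 rose and 3 fell. Rab18, a small GTPase of the droplet surface, fell to 127 ± 20.5 TPM in OVX8_SCI7, against 265 ± 22.7 TPM in SCI7 (SD, n = 4 each; log2 difference -0.98, SE 0.21, edgeR adjusted p 0.0143), and had the smallest p of its list, but its log2 difference was -0.11 with the GC and length offset. Spast and Ldah also fell, and Aup1 and Bscl2, which encodes seipin, rose. With the offset Aup1 stood at 0.08 and Bscl2 at -0.14. Acsl3, which activates fatty acids on new droplets, was at 88.8 ± 12.5 TPM in OVX8_SCI7 and 187 ± 60.7 TPM in SCI7 and did not pass (adjusted p 0.0537).

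Upstream of the Dgat enzymes, 2 of 13 tested genes of triglyceride and ester synthesis rose and 1 fell. Agpat1, which makes phosphatidic acid, had the smallest p and rose to 84.7 ± 15.7 TPM in OVX8_SCI7, against 55.0 ± 4.75 TPM in SCI7 (log2 0.68, SE 0.15, edgeR adjusted p 0.0145), but its log2 difference was -0.09 with the GC and length offset. Agpat3 and Soat1, the most abundant of the list, did not pass and had log2 differences of 0.20 (SE 0.21) and -0.02 (SE 0.36). Soat1 makes the cholesterol esters of foamy macrophages.

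Of 12 tested genes of lipolysis, 2 rose and 3 fell, and the direct partners of Pnpla2 parted. G0s2, which inhibits Pnpla2, rose, at 4.54 ± 1.32 CPM in OVX8_SCI7 and 2.201 ± 0.564 CPM in SCI7 (log2 1.05, SE 0.29, edgeR adjusted p 0.0251), and Abhd5, its activator, fell, at 36.4 ± 4.00 CPM in OVX8_SCI7 and 54.6 ± 7.64 CPM in SCI7 (-0.58, SE 0.14, adjusted p 0.0165). With the offset G0s2 stood at 0.33 and Abhd5 at -0.28. Both are named as partners after their values were seen. Lipe, hormone-sensitive lipase, had the smallest p and rose to 16.1 ± 3.07 TPM in OVX8_SCI7, against 10.6 ± 2.25 TPM in SCI7 (log2 0.80, SE 0.18, adjusted p 0.0149), and 0.24 with the offset. Pnpla8 fell (-0.87, SE 0.20, adjusted p 0.0153) but stood at 0.05 with the offset, and Lipa, the lysosomal acid lipase, did not pass (0.24, SE 0.51).

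Of 16 tested genes of fatty acid uptake and activation, 2 rose (Slc27a1, Slc27a4) and 3 fell (Acsl4, Fabp7, Vldlr). With the offset Slc27a1 stood at 0.15 and Slc27a4 at -0.09. Acsl4, which activates polyunsaturated fatty acids, fell to 10.2 ± 2.24 TPM in OVX8_SCI7, against 22.1 ± 1.36 TPM in SCI7 (log2 -1.09, SE 0.14, edgeR adjusted p 0.0143), with -0.18 under the offset. The abundant binding proteins Dbi and Fabp5 did not pass, with log2 differences of 0.10 (SE 0.23) and 0.64 (SE 0.50). Of 12 tested genes of fatty acid synthesis and desaturation, 1 rose and 2 fell. The riser, Acacb, an acetyl-CoA carboxylase, had the smallest p (0.64, SE 0.16, adjusted p 0.0174) and stood at 0.06 with the offset. The desaturase genes Scd2 and Scd1, the most abundant, did not pass at -0.50 (SE 0.29) and -0.85 (SE 0.33).

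Of 18 tested genes of fatty acid oxidation, 4 rose and 0 fell. Acadvl, the very long-chain acyl-CoA dehydrogenase, rose with the smallest p (log2 0.56, SE 0.15, edgeR adjusted p 0.0218). Etfb, an electron carrier of that step, also rose (0.95, SE 0.30, edgeR adjusted p 0.0357). With the offset Acadvl stood at 0.13 and Etfb at 0.25. Hadhb, also abundant, did not pass (-0.27, SE 0.17). Of 9 tested targets of PPAR receptors, 0 rose and 1 fell, Pdk4, an inhibitor of pyruvate use (-0.61, SE 0.18, adjusted p 0.0292), and at -0.25 with the offset. Ucp2 stood at 646 ± 139 TPM in OVX8_SCI7 and 298 ± 133 TPM in SCI7 without passing (adjusted p 0.0781), and neither did Txnip (adjusted p 0.244).

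Hilpda is a target of hypoxia-inducible factors, and of 16 tested genes of that kind 1 rose and 3 fell. Vegfa rose, while Ero1a, with the smallest p (log2 -1.01, SE 0.23, edgeR adjusted p 0.0145, -0.35 with the offset), Bnip3l and Bnip3 fell. The glycolytic targets Pgk1 and Ldha did not pass, at -0.02 (SE 0.16) and 0.22 (SE 0.33). Of 12 tested genes induced by glucocorticoids, 4 rose and 0 fell. Zbtb16 had the smallest p and stood at 10.4 ± 2.54 TPM in OVX8_SCI7, 9.28 ± 3.47 TPM in OVX2_SCI7 and 3.08 ± 1.03 TPM in SCI7 (log2 1.69, SE 0.29, adjusted p 0.0143 for OVX8_SCI7 against SCI7), with 1.32 under the offset. Mt1 and Mt2, the abundant metallothioneins, did not pass (adjusted p 0.0574 and 0.148).

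Among 19 tested transcription factors of lipid storage, 9 rose and 1 fell, 52.6% against the 27.5% of all genes. Nr1h2, the oxysterol receptor LXR beta, had the smallest p and rose to 78.9 ± 14.0 TPM in OVX8_SCI7, against 36.8 ± 4.15 TPM in SCI7 (log2 1.09, SE 0.21, edgeR adjusted p 0.0143). Nr1h3, Ppard, Rxra, Rxrb, Mlxipl, Klf15, Tfeb and Srebf1 also rose, and Hif1a, the hypoxia-inducible subunit, fell to 52.5 ± 12.03 TPM in OVX8_SCI7, against 111 ± 24.6 TPM in SCI7 (-1.04, SE 0.20, adjusted p 0.0143). The median log2 difference of this list was 0.72, and -0.02 with the GC and length offset. Under the offset Nr1h2 stood at 0.23, Hif1a at -0.35 and Srebf1 at -0.06. Ppard and Tfeb also turned negative, at -0.06 and -0.03.

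**Figure D5:**
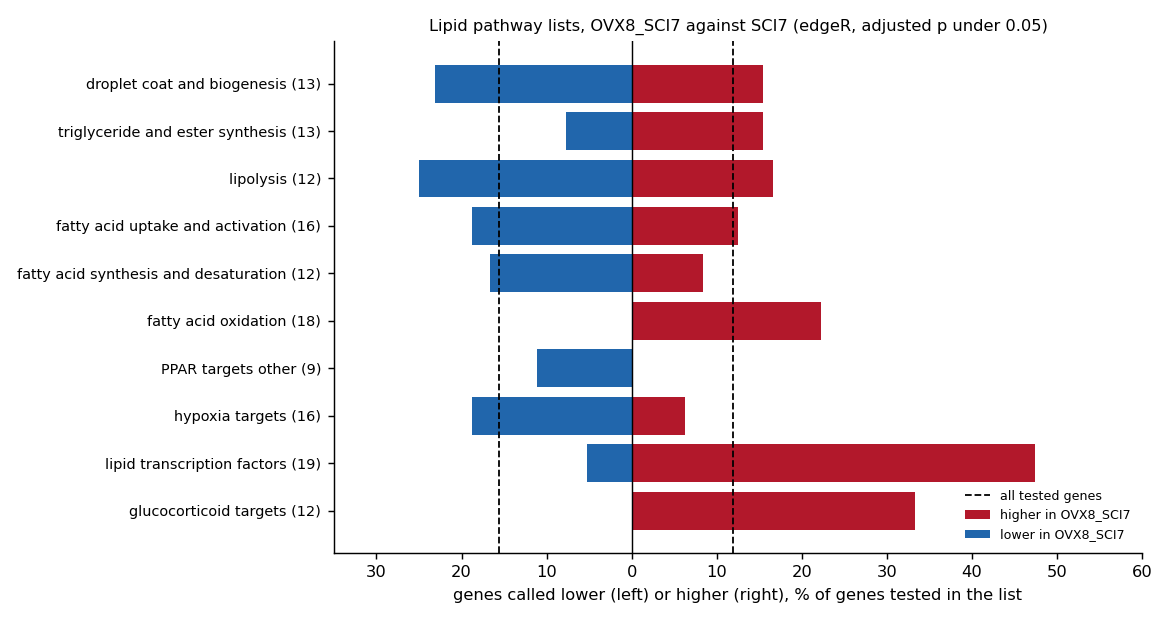
Share of tested genes called higher (right) or lower (left) in OVX8_SCI7 against SCI7 in 10 lists that hold none of the 8 members. The lists cover lipid genes and targets of hypoxia and of glucocorticoids. Calls are by edgeR at adjusted p under 0.05, and the number tested is in brackets. Dashed lines mark the shares over all tested genes, 11.9% higher and 15.6% lower. The transcription factor list has 9 of 19 genes higher, and with the GC and length offset no gene of the 10 lists was called.

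The other markers, given as the range of summed TPM, had all their genes above 0 in every group. Homeostatic microglia were at 1133 to 1408 in OVX8_SCI7, 987 to 1392 in OVX2_SCI7 and 686 to 1432 in SCI7. Astrocytes were at 5132 to 7214 in OVX8_SCI7, 3338 to 8941 in OVX2_SCI7 and 6016 to 6802 in SCI7. Oligodendrocytes were at 16753 to 23444 in OVX8_SCI7, 11160 to 30814 in OVX2_SCI7 and 18493 to 22210 in SCI7.

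Neurons were at 1069 to 1872 in OVX8_SCI7, 567 to 3174 in OVX2_SCI7 and 1023 to 3433 in SCI7, and endothelial cells and pericytes at 362 to 488 in OVX8_SCI7, 236 to 442 in OVX2_SCI7 and 215 to 420 in SCI7. Fibroblasts and meninges were at 3506 to 7129 in OVX8_SCI7, 567 to 8791 in OVX2_SCI7 and 726 to 4152 in SCI7. Schwann cells and sensory ganglia were at 838 to 1776 in OVX8_SCI7, 866 to 2811 in OVX2_SCI7 and 648 to 1261 in SCI7. Red blood cells were at 340 to 638 in OVX8_SCI7, 308 to 1523 in OVX2_SCI7 and 402 to 1473 in SCI7, and the cord segment list was at 234 to 356 in OVX8_SCI7, 176 to 374 in OVX2_SCI7 and 223 to 328 in SCI7. All groups overlapped in each of these sums.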

How the data were processed

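RNA of 12 mouse spinal cord lesions was sequenced as paired-end reads. Groups and replicate numbers come from the labels, where samples are named biological replicates. Per the submitters' processing notes, fastp 0.23.4, HISAT2 2.2.1, RSEM 1.3.3, DESeq2 1.42.0, edgeR and limma were used with GRCm39; kit, RNA selection and strand are not given in the sources used here. The authors deposited expected counts, which are RSEM estimates and were rounded here, TPM and FPKM, which scale by transcript length and library. Each of the 3 tables has 3 further value columns, 9 in all, that match no sample, equal the group means and were not used.

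Genes were filtered with filterByExpr by group (17820 left), scaled by TMM and fitted over all 12 libraries with the group as the only term (edgeR 4.0.16, R 4.3.3, robust quasi-likelihood F-test, Benjamini-Hochberg adjustment over all tested genes, threshold 0.05). CPM come from the rounded counts and TMM-scaled totals. Library totals of 18222809 to 31781728 counts make 3 counts equal 0.0944 to 0.165 CPM. Standard errors are the size of the log2 difference over the square root of F. The GC and length offset fits the deviation of each library by natural splines (5 degrees of freedom each) of GC content and log length, read from GENCODE M21 (GRCm38, older than the build of the counts) and fitted where genes averaged 5 CPM or more; 97.9% of tested genes have a value. Correlations use log2 CPM with a prior count of 2, those with marker sums log2(TPM + 0.1) of the member. The fits were tested on simulated data.

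The members and the lists (10 lipid or pathway lists, 12 of cell markers) were chosen with earlier results of these data known. The lists of hypoxia and glucocorticoid targets are counted among the 10 lipid lists. Named genes are the members, in each lipid list the 2 tested genes with the highest mean TPM and the one with the smallest p in OVX8_SCI7 against SCI7, and for each member the 3 genes most alike over the 12 libraries and the 3 most alike within groups, leaving out predicted genes and pseudogenes; 1 of these is not reported here. Other pathway genes that passed are in their list's count, and only some are named. The same replicate numbers did not pair the libraries, so no block entered the fit. Other settings were DESeq2 1.42.0 and its size factors, other low-count filters, limma 3.58.1 (voom, voom with quality weights, trend on log2(TPM + 1) and log2(TPM + 0.1)), fits to only the 8 libraries compared, the replicate block, the offset, and libraries left out.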

Additional observations from a re-analysis of the deposited data

Results flagged for a closer look

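Levels in TPM of the 8 genes in each of the 3 groups, 24 sets of 4 libraries, were screened for a library whose gap to its neighbour, over the range of the set, passed Dixon's critical value for 4 values. Plin5 in SCI7 was the single such set, with 0.77 TPM (15 counts) in replicate 4 and 0.39 to 0.43 TPM (8 to 9 counts) in the other libraries of the group. Chance alone would mark about 5% of such sets.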

How the results depend on the processing

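In OVX8_SCI7 against SCI7, 44 pathway genes were called. The count was 91 under limma-voom with quality weights, 67 in the 8 libraries alone, 29 on log2(TPM + 1), 28 on log2(TPM + 0.1), and 0 with the GC and length offset, with or without the block. Leaving out 1 library gave 0 to 57, with 0 without replicate 2 of OVX8_SCI7, 12 without its replicate 3, 24 without its replicate 1, and 21, 16 and 22 without SCI7 replicates 1, 2 and 3. The 3 members called were 1 on both TPM scales (Plin4), 0 with the offset with or without the block, and 0 to 3 with 1 library left out (0 without replicate 2 of OVX8_SCI7). In OVX2_SCI7 against SCI7, the count of 0 pathway genes became 1 without a filter, 16 with the stricter filter, 36 under DESeq2, 13 under limma-voom, 79 with quality weights, and 68 without replicates 1 and 2 of OVX2_SCI7; leaving out 1 library gave 0 to 54, the highest without replicate 1 of OVX2_SCI7. The count of 0 members became 2 with the stricter filter, 3 under DESeq2, 2 under limma-voom, 6 with quality weights and 5 without those 2 libraries, and 0 to 3 with 1 left out. OVX8_SCI7 against OVX2_SCI7 gave 0 members and 0 pathway genes under every setting run, and leaving out 1 library gave 0 to 0. The cause of these shifts was not tested.

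Replicate numbers did not pair the libraries, since 5 of 12 same-number pairs had correlated deviations over 0.1 (median 0.02) and 3 of 12 libraries were most like their own number. With the replicate block 32 pathway genes and 2 members (Plin4, Pnpla2) were called in OVX8_SCI7 against SCI7, and 0 in the other comparisons. Signs turned for 3 called pathway genes among those named by level or smallest p, all in OVX8_SCI7 against SCI7. With the offset the log2 difference was -0.0878 for Agpat1, 0.0451 for Pnpla8 and -0.0619 for Srebf1. With offset and block it was -0.0856 for Agpat1, 0.0504 for Pnpla8 and -0.0599 for Srebf1. Among the other called pathway genes, the offset also turned the sign of Agpat4 (-0.07), Bscl2 (-0.14), Cpt1c (-0.13), Per1 (-0.001), Ppard (-0.06), Slc27a4 (-0.09) and Tfeb (-0.03). Of 199 member differences recomputed in OVX8_SCI7 against SCI7, 184 stayed within 1 SD of the reported value and 8 turned sign, none of them of a called member. FPKM gave the same order of the 8 members as TPM. Within a library this is so by construction, as their ratio is constant there apart from rounding. Plin5, at 8 to 24 counts, did not pass the stricter filter. The cause was not tested.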
